A study of Saccharomyces cerevisiae with 4 samples.

Results

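The small subunit of the mitochondrial ribosome of *Saccharomyces cerevisiae* was followed through its nuclear genes: the *MRP*, *MRPS* and *RSM* genes together with *PET123*, *NAM9*, *SWS2*, *FYV4*, *EHD3* and *KGD4* (also *YMR31*). They make up 34 of the 6692 rows of the counts table. The group was chosen by the counts of its genes in *sis2Δ* set against the wild type in these same libraries, so every value of that comparison below is a description of the genes and not a test of the group. The order of the genes by level per length, the spread between replicates and the sequences around the genes played no part in the choice.

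The study deletes *SIS2* in yeast and follows replicative lifespan. Sis2, also called Hal3, is an inhibitory subunit of the Ppz protein phosphatases and a subunit of the decarboxylase of coenzyme A synthesis. RNA-seq was performed on 2 cultures of a *sis2Δ* strain and 2 cultures of BY4741, a haploid laboratory strain of mating type **a** that serves as its wild type, labelled A and B in each strain. Both strains grew in synthetic complete medium with 2% glucose to mid-log phase and carry the auxotrophic deletions of BY4741. In glucose medium yeast ferments, and respiration is not needed for growth. How many clones of the deletion strain were sequenced is not given in the sources used here.

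Mitochondria keep their own ribosomes, which translate the few proteins encoded in mitochondrial DNA, most of them core subunits of the respiratory chain and of ATP synthase. Nearly all proteins of these ribosomes are encoded in the nucleus, made in the cytosol and imported. The small subunit binds the mRNA and holds the decoding centre. Part of its proteins descend from the bacterial small subunit and carry the bacterial names used here (uS12 and the like), and others are found only in mitochondrial ribosomes. In yeast the messages of many of these genes are bound by Puf3, a Pumilio-family protein that recognises a short element downstream of the stop codon and controls the decay and the localisation of the messages.

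That element, written TGTANATA, was searched on the sense strand in the 200 bases after each stop codon, and the sites are shown first because nearly all of the 34 genes hold it. It was present in 32 of the 34 genes (94.1%). By the same search it was present in 44 of the 44 genes of the mitochondrial large subunit, in 2 of the 57 genes of the cytosolic small subunit (3.51%) and in 844 of all 6002 protein-coding genes (14.1%). The sites below are those of the genes with an adjusted p under 0.05, of *RSM19* with its 3 copies, of 3 genes whose variable base is not A, and of *RSM18* and *NAM9*, which had the element and a log2 fold change near 0. Each line is 30 bases read 5′ to 3′ on the strand of the gene, from the RefSeq sequence of R64, the build to which the reads were mapped, with the element in capitals.
*RSM26* (chrX:619111-619140, plus strand): atcttatatacTGTAAATAgttttatttta
*MRPS12* (chrXIV:694269-694298, minus strand): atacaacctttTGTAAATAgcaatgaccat
*RSM10* (chrIV:540462-540491, plus strand): gatttcgtactTGTAAATAaaataggtgaa
*MRP17* (chrXI:437038-437067, minus strand): ctacaaacacaTGTAAATAcatacatatct
*RSM19* nearest the stop codon (chrXIV:695022-695051, minus strand): gggatctagTGTATATAgatttctagatga
*RSM19* middle (chrXIV:694996-695025, minus strand): atgatatatcaTGTAAATAagatcaagcca
*RSM19* farthest (chrXIV:694968-694997, minus strand): cagactcgggcTGTATATAtatatatatat
*RSM27* (chrVII:922547-922576, plus strand): aactcatttcaTGTACATAcaaaatcaaaa
*MRPS35* (chrVII:830212-830241, plus strand): ccattattactTGTACATAaaatattctac
*PET123* (chrXV:633220-633249, plus strand): aaatatgcccaTGTATATAcgtcacttgcg
*RSM18* (chrV:253886-253915, minus strand): atagttctgtcTGTAAATAtacaatatgta
*NAM9* (chrXIV:368522-368551, minus strand): tctctttacacTGTAAATAtttaatttttt

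The 34 genes held 39 such sites. A single site was found in 26 genes, 2 sites in 5 genes (*MRP1*, *MRPS5*, *MRPS16*, *RSM24* and *FYV4*) and 3 sites in *RSM19*. No match was found downstream of *RSM22* and *KGD4*, also not within 300 bases. The elements began between 8 and 170 bases after the stop codon, with a median of 56 bases. The variable base was A at 23 sites, T at 9, C at 7 and G at none of the 39. A cytosine stood 2 bases before the element at 24 of the 39 sites (61.5%), as in the lines of *PET123* and *MRP17*, against 36 of 52 sites (69.2%) of the large subunit and 196 of 823 sites (23.8%) of all other protein-coding genes. With a window of 100 bases 29 of the 34 genes held the element (85.3%), against 10.1% of all protein-coding genes. A match of letters does not show that Puf3 bound there in these cultures.

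**Figure D1:**
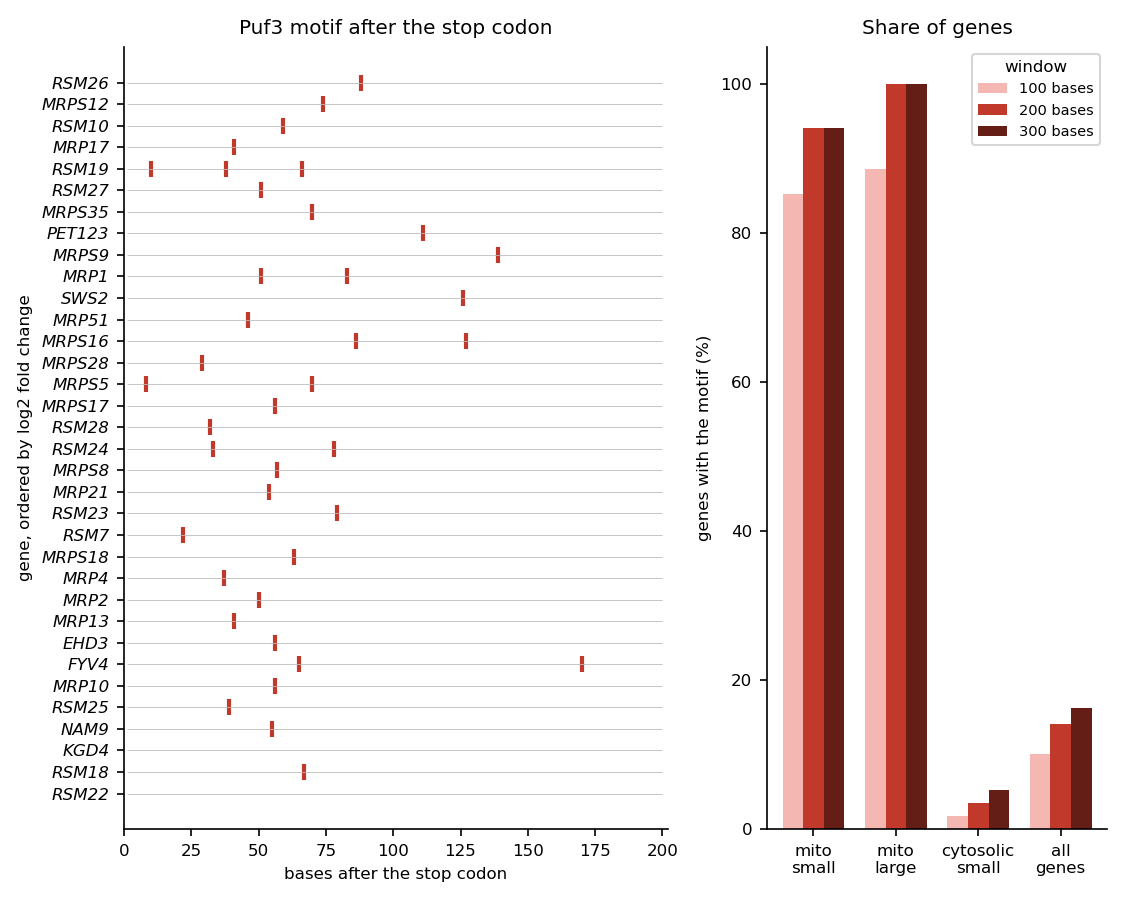
Left, start of each TGTANATA match in bases after the stop codon (x axis, 0 to 200) for the 34 genes, ordered by log2 fold change of *sis2Δ* over the wild type with the lowest at the top. Right, percentage of genes with a match within 100, 200 and 300 bases for the mitochondrial small and large subunits, the cytosolic small subunit and all protein-coding genes. Most matches lie within 100 bases of the stop codon, and *KGD4* and *RSM22* have none.

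The pentamer CCAAT, to which the Hap2/3/4/5 activator of respiratory genes binds, was about as frequent before these genes as before other genes. On either strand of the 250 bases before the start codon it was present in 11 of the 34 genes (32.4%), against 13 of the 44 large subunit genes and 35.4% of all protein-coding genes. Within 150 bases it was present in 9 genes (26.5%), against 22.1% of all.

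The libraries held between 19001619 and 28069619 counts, and 5959 genes reached 0.5 CPM (counts scaled to the size of the library) in at least 2 libraries and were tested. *SIS2* had 6 and 9 counts in *sis2Δ*, against 3991 and 2208 counts in the wild type. *URA3* and *MET17*, deleted in BY4741, had 0 counts in all 4 libraries. *LEU2*, also deleted, had 0 and 1 counts in *sis2Δ* and 0 counts in both wild-type libraries. *HIS3*, of which the allele of BY4741 lacks only a part, averaged 37.3 CPM in *sis2Δ* and 35.6 CPM in the wild type, and so does not check the strain. Of the markers of mating type **a** cells, the receptor gene *STE2* averaged 601 CPM in *sis2Δ* and 541 CPM in the wild type and was not called, while the pheromone genes *MFA1* and *MFA2* were called higher in *sis2Δ* (log2 fold change 0.90 and 0.64, adjusted p = 0.000614 and 0.0228 from edgeR). Of the markers of the opposite mating type, *STE3* averaged 12.6 and 10.4 CPM in *sis2Δ* and in the wild type, and *MF(ALPHA)1*, an α-factor gene, averaged 2.01 and 0.528 CPM (log2 fold change 1.97, adjusted p = 0.0222 from edgeR). *MF(ALPHA)2* had 11 and 7 counts in *sis2Δ*, against 1 and 3 counts in the wild type. Whether cells of the opposite mating type were present was not tested, nor was any part of them in the values below. The replicates of each strain differed by more than counting noise (chi-square over its degrees of freedom 58.0 in *sis2Δ* and 19.8 in the wild type).

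All 34 genes passed the filter, with between 526 and 5684 counts in each library. Their summed level, scaled by TMM, was 2380 and 2313 CPM in *sis2Δ* A and B, against 2793 and 2858 CPM in wild type A and B. The strains did not overlap in this sum, which averaged 2347 ± 47.2 CPM in *sis2Δ* and 2826 ± 46.4 CPM in the wild type (SD, n = 2 each). The sum was 16.9% lower in *sis2Δ*. CPM are shares of the sequenced mRNA of a whole culture, so less of these messages in every cell and fewer cells that carry them cannot be told apart.

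The fitted log2 fold change was below 0 for 34 of the 34 genes, between -0.50 and -0.03 with a median of -0.28, but with scaling by library size alone it was above 0 for *KGD4*, *RSM18* and *RSM22*. Of all tested genes 3038 (51.0%) were below 0, and their median was -0.00498. Both *sis2Δ* libraries lay under both wild-type libraries for 26 of the 34 genes, against 28.6% of all tested genes, and in the opposite order for 0 genes, against 24.5% of all. The other 8 genes, whose strains overlapped, were *MRP4*, *MRP13*, *FYV4*, *MRP10*, *RSM25*, *NAM9*, *KGD4* and *RSM22*. The number of genes separated and lower was 25 with median-ratio size factors and 22 with library size alone. For a gene taken alone, the smallest p that exact permutation of 2 against 2 libraries allows is 0.333 (two-sided).

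By edgeR's quasi-likelihood test, adjusted over all tested genes, 4 of the 34 genes were called lower in *sis2Δ*, against 3.36% of all tested genes, and 0 were called higher, against 2.72% of all. At an unadjusted p under 0.05 the numbers were 21 lower, against 10.4% of all tested genes, and 0 higher, against 10.6% of all. The adjusted p of the called genes lay between 0.0190 and 0.0491, and the lowest of the genes not called, that of *MRPS35*, was 0.0553. limma-voom called the same 4 genes lower and DESeq2 3 of them, without *MRP17*, and both called 0 higher. Over the whole table limma-voom called 353 and DESeq2 409 of 5959 genes in either direction. With scaling by library size alone 0 of the 34 were called, and 316 of 5959 over the whole table. With no filter beyond 1 count 2 of the 34 were called, and 299 of 6548 over the whole table. Without *sis2Δ* A 0 of the 34 were called, and 190 of 5919 genes over the whole table in either direction. Without *sis2Δ* B 7 were called, and 985 of 5930 over the whole table. Without wild type A 2 were called, and 329 of 5923, and without wild type B 1, and 194 of 5924.

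**Figure D2:**
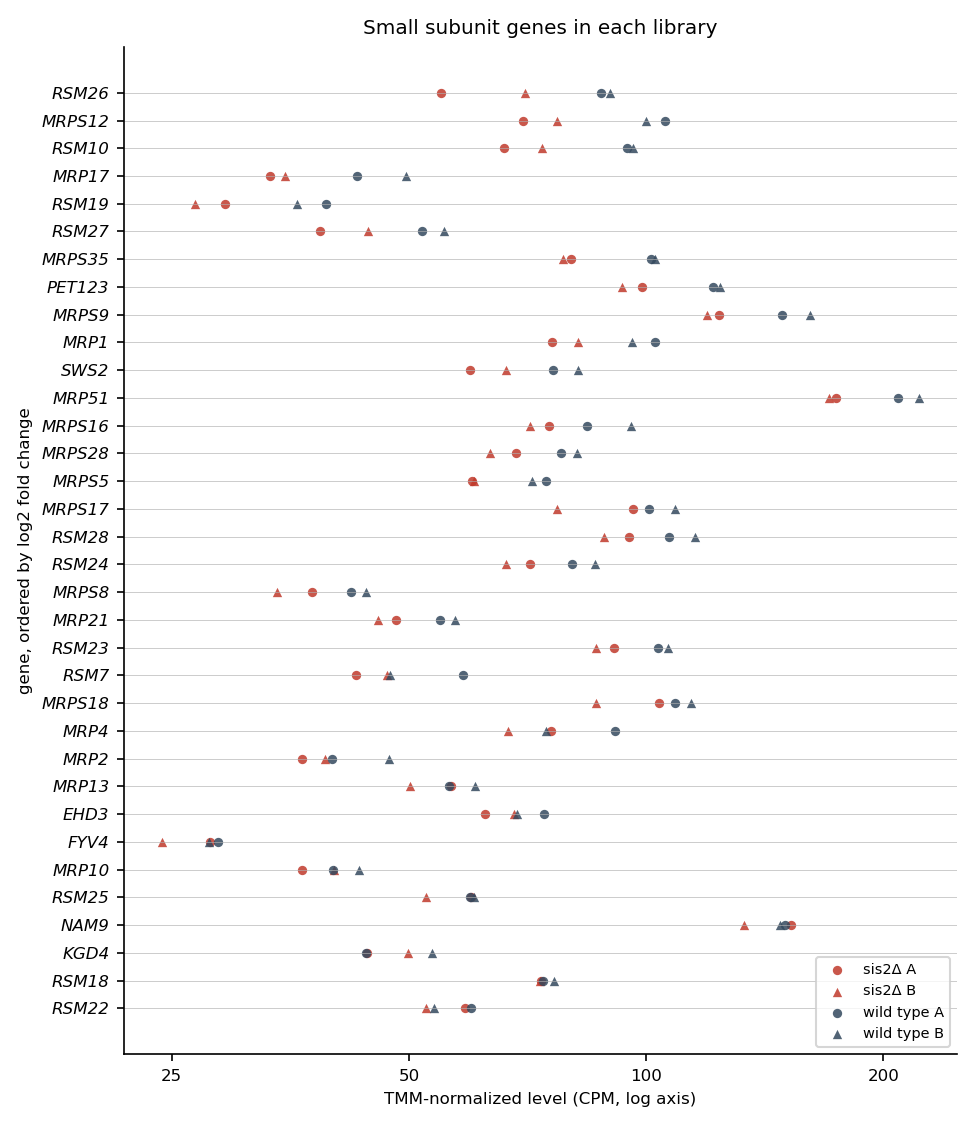
TMM-normalized level in CPM (x axis, logarithmic) of each of the 34 genes in *sis2Δ* A and B (red circles and triangles) and in wild type A and B (blue circles and triangles), ordered by log2 fold change with the lowest at the top. In the upper rows both *sis2Δ* libraries lie left of both wild-type libraries, and in 8 of the lower rows the strains overlap.

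The 18 bacterial homologues are taken here by the place of their proteins in the bacterial subunit. *MRPS12* (YNR036C; chrXIV:694361-694822, minus strand) encodes the uS12 protein, which sits at the decoding centre. It had 69.8 and 77.2 CPM in *sis2Δ* A and B, against 106 and 100 CPM in wild type A and B. Its strains lay well apart, the lowest wild-type value being above the highest *sis2Δ* value by more than the gap between replicates. This gave a log2 fold change of -0.49, with a standard error of 0.11 and an adjusted p of 0.0190 from edgeR. It was -0.40 without *sis2Δ* A (adjusted p = 0.0940 from edgeR) and -0.44 without wild type A (adjusted p = 0.0759). *NAM9* (YNL137C) and *MRPS5* (YBR251W) encode uS4 and uS5, which in bacteria lie with uS12 on the path of the mRNA and affect the fidelity of decoding. *MRPS5* averaged 60.3 ± 0.341 CPM in *sis2Δ* and 73.1 ± 2.21 CPM in the wild type, a log2 fold change of -0.28. *NAM9* had 153 and 133 CPM in *sis2Δ*, against 150.2 and 148 CPM in the wild type, so that its strains overlapped and its log2 fold change was -0.06.

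Of the proteins of the head of the subunit, which carries the tRNA and turns during translocation, uS10 is encoded by *RSM10* (YDR041W; chrIV:539803-540414, plus strand). *RSM10* had 66.1 and 73.7 CPM in *sis2Δ* A and B, against 94.6 and 96.3 CPM in wild type A and B. Both *sis2Δ* values were low and the wild-type values close together. This gave a log2 fold change of -0.45, with a standard error of 0.11 and an adjusted p of 0.0274 from edgeR, and the adjusted p was 0.129 without *sis2Δ* A, 0.0611 without wild type A and 0.168 without wild type B. *RSM19* (YNR037C; chrXIV:695052-695327, minus strand), which encodes uS19, had 29.2 and 26.8 CPM in *sis2Δ*, against 39.3 and 36.0 CPM in the wild type. Its log2 fold change of -0.43 had an adjusted p of 0.0570 from edgeR. *RSM19* lies 229 bp upstream of *MRPS12* on the same strand, and both were among the 5 genes with the lowest log2 fold change.

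The other genes of the head lay between -0.35 and -0.20 on the log2 scale. *MRPS9* (YBR146W, uS9) had a log2 fold change of -0.35 and *SWS2* (YNL081C, uS13) of -0.32, each with separated strains. *RSM7* (YJR113C), which encodes uS7, the protein that nucleates the head in bacteria, had 42.8 and 46.9 CPM in *sis2Δ*, against 58.6 and 47.3 CPM in wild type A and B. Wild type B was close to *sis2Δ* B, and the replicates of the wild type differed by 0.31 on the log2 scale. *RSM7* had a log2 fold change of -0.24 and *MRP2* (YPR166C, uS14) of -0.20. *MRP4* (YHL004W) encodes uS2, which lies between head and body. Its log2 fold change was -0.22 and its strains overlapped.

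The platform and the body gave the remaining bacterial homologues. *MRP17* (YKL003C; chrXI:437097-437492, minus strand) encodes bS6, a platform protein, and was found by others in screens around *PET122*, an activator of *COX3* translation. It had 33.3 and 34.8 CPM in *sis2Δ* A and B, against 43.0 and 49.6 CPM in wild type A and B. The *sis2Δ* libraries were alike and the wild-type libraries apart, and the strains did not overlap. This gave a log2 fold change of -0.44, with a standard error of 0.12 and an adjusted p of 0.0491 from edgeR. It was -0.40 without *sis2Δ* A (adjusted p = 0.171) and -0.32 without wild type B (adjusted p = 0.522). DESeq2 did not call it (adjusted p = 0.0569), nor did edgeR with no filter beyond 1 count (adjusted p = 0.0761). Its partner on the bacterial platform, bS18, is encoded by *RSM18* (YER050C; chrV:253971-254387, minus strand). *RSM18* had 73.6 and 73.3 CPM in *sis2Δ*, against 74.0 and 76.3 CPM in the wild type. All 4 values were nearly the same, and the log2 fold change was -0.03 (standard error 0.10). On the platform *MRPS18* (YNL306W, uS11) had -0.23 and *MRP21* (YBL090W, bS21) -0.26 on the log2 scale.

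In the body, *MRPS16* (YPL013C, bS16) had 75.4 and 71.2 CPM in *sis2Δ*, against 84.0 and 95.8 CPM in the wild type, a log2 fold change of -0.29. *MRPS17* (YMR188C) encodes uS17, which binds the ribosomal RNA early in bacterial assembly, as do uS8 of *MRPS8* (YMR158W) and uS15 of *MRPS28* (YDR337W). *MRPS17* had 96.1 and 77.2 CPM in *sis2Δ* A and B, against 101 and 109 CPM in the wild type. Its *sis2Δ* replicates differed by 0.32 on the log2 scale, more than its log2 fold change of -0.28. *MRPS28* had a log2 fold change of -0.28 and *MRPS8* of -0.27. Over the 18 bacterial homologues the median was -0.28. Of these, 16 were separated and lower in *sis2Δ*, against 28.6% of all tested genes. By edgeR 3 were called lower, against 3.36% of all.

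The 14 genes for ribosomal proteins that were given no bacterial name here had a median of -0.28. Of these, 9 were separated and lower in *sis2Δ*, against 28.6% of all tested genes. By edgeR 1 was called lower, against 3.36% of all. That gene was *RSM26* (YJR101W; chrX:618234-619034, plus strand), whose protein resembles superoxide dismutases in sequence. *RSM26* had 55.0 and 70.2 CPM in *sis2Δ* A and B, against 87.8 and 89.9 CPM in wild type A and B. Both *sis2Δ* values were below both wild-type values, and *sis2Δ* A stood 0.35 on the log2 scale below *sis2Δ* B, the widest gap between replicates among the 34 genes. This gave a log2 fold change of -0.50, with a standard error of 0.12 and an adjusted p of 0.0331 from edgeR. It was -0.33 without *sis2Δ* A (adjusted p = 0.174), -0.69 without *sis2Δ* B and -0.47 without wild type B (adjusted p = 0.0930). *MRP1* (YDR347W), which encodes the other protein of that family, averaged 79.0 ± 4.15 CPM in *sis2Δ* and 99.3 ± 4.65 CPM in the wild type, a log2 fold change of -0.33.

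*PET123* (YOR158W) and *MRP51* (YPL118W) encode proteins tied by yeast genetics to the translational activators and the leaders of mitochondrial messages. *PET123* averaged 96.1 ± 3.97 CPM in *sis2Δ* and 123 ± 1.85 CPM in the wild type, a log2 fold change of -0.36. *MRP51* averaged 172 ± 2.78 CPM in *sis2Δ* and 215 ± 9.40 CPM in the wild type, a log2 fold change of -0.32. For both genes the gap between strains was wider than that between replicates, and neither was called (adjusted p = 0.0602 and 0.0974 from edgeR).

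*RSM27* (YGR215W) and *MRPS35* (YGR165W) had log2 fold changes of -0.37 and -0.36, *RSM28* (YDR494W) and *RSM24* (YDR175C) of -0.28 and -0.27. *RSM23* (YGL129C), the counterpart of the GTP-binding protein DAP3 of animal mitochondria, had -0.24. Smaller values were found for *MRP13* (YGR084C, -0.13), *FYV4* (YHR059W, -0.12), *MRP10* (YDL045W-A, -0.11), whose protein is folded by the disulfide relay of the intermembrane space, and *RSM25* (YIL093C, -0.10). In these 4 genes the strains overlapped. *RSM22* (YKL155C; chrXI:159456-161342, minus strand), which encodes a methyltransferase-like protein, had 58.9 and 52.5 CPM in *sis2Δ* A and B, against 60 and 53.8 CPM in wild type A and B. Its replicates differed more than its strains, and its log2 fold change was -0.03 (standard error 0.11).

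The last pair encodes enzymes. *EHD3* (YDR036C), a hydrolase of valine breakdown that is found with the small subunit, had 62.4 and 67.9 CPM in *sis2Δ*, against 74.1 and 68.5 CPM in the wild type, a log2 fold change of -0.13. *KGD4* (YFR049W; chrVI:248523-248894, plus strand), first described as a protein of the small subunit and since then as a subunit of α-ketoglutarate dehydrogenase, had 44.3 and 49.9 CPM in *sis2Δ* A and B, against 44.1 and 53.4 CPM in wild type A and B. Library A was lower than library B in both strains, and the log2 fold change was -0.05 (standard error 0.13). *KGD4* and *RSM22* are the genes with no Puf3 element, and their log2 fold changes of -0.05 and -0.03 were smaller in size than their standard errors. The same held for *RSM18* (-0.03), *NAM9* (-0.06), *FYV4*, *MRP10* and *RSM25*, which have the element. The genes without it are too few to compare, and whether the element bears on the fold changes was not tested.

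**Figure D3:**
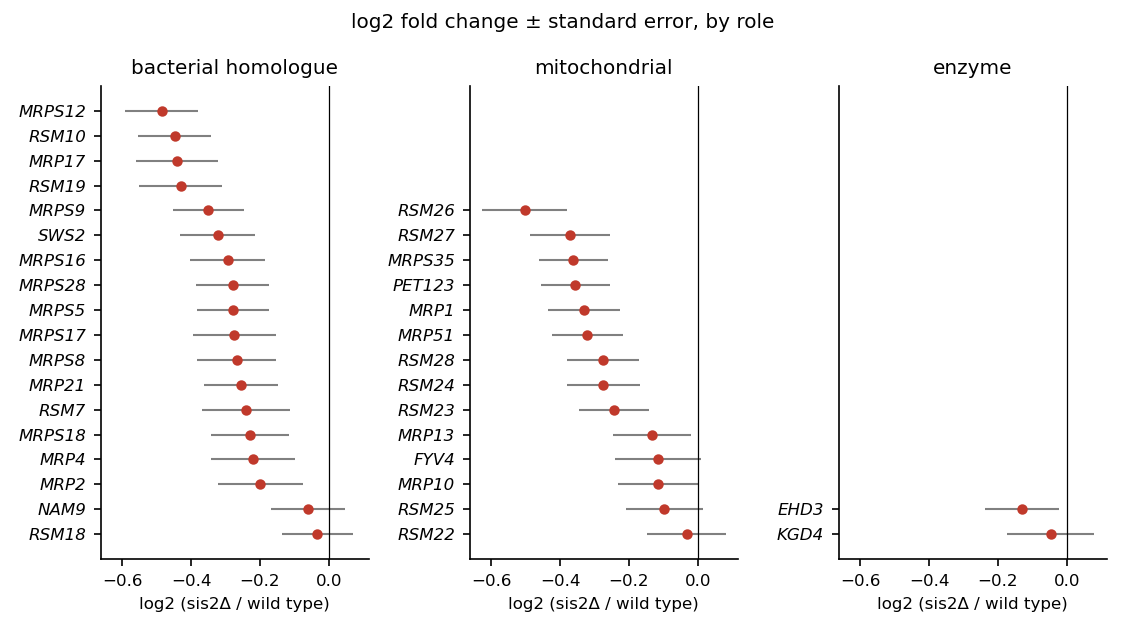
Fitted log2 fold change of *sis2Δ* over the wild type (x axis) with its standard error (bars) for the 18 bacterial homologues, the 14 ribosomal genes given no bacterial name here (titled mitochondrial) and the enzymes *EHD3* and *KGD4*. All points lie left of the line at 0, and the bars of *NAM9*, *RSM18*, *FYV4*, *MRP10*, *RSM25*, *RSM22* and *KGD4* cross it. With scaling by library size alone *KGD4*, *RSM18* and *RSM22* lie to the right of 0.

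The log2 fold changes of the 34 genes had an SD of 0.13, and the median standard error of a gene was 0.11. For 22 of the 34 genes the log2 fold change lay more than 2 standard errors below 0. The standard errors come from the same test as the p-values. This count thus largely repeats the 21 genes lower at an unadjusted p under 0.05 from edgeR, against 10.4% of all tested genes. Across the genes it had a Pearson's r of -0.38 and a Spearman's rho of -0.38 with the log2 of the level per length. With the log2 of the coding length they were 0.18 and 0.16. These are descriptions over 34 genes measured in the same 4 libraries, and genes are not independent replicates.

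Levels were compared between genes as CPM per kb of coding sequence. The choice of the genes did not use the order of levels between genes. The difference between the strains in these levels is the comparison that it did use. The median over the 34 genes was 86.9 CPM per kb in *sis2Δ* and 107.9 CPM per kb in the wild type, against 57.2 and 57.7 CPM per kb over the 5673 tested nuclear protein-coding genes in *sis2Δ* and in the wild type. The large subunit stood at 84.4 and 106.8 CPM per kb, and the cytosolic small subunit at 1641 and 1906 CPM per kb. The messages of the mitochondrial small subunit were thus at the level of those of the large subunit and far under those of the cytosolic ribosome.

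The highest level was that of *MRPS16*, with 200.2 ± 8.12 CPM per kb in *sis2Δ* and 246 ± 22.8 CPM per kb in the wild type (SD, n = 2 each). *MRPS12* followed in the mean of both strains, with 159 ± 11.2 CPM per kb in *sis2Δ* and 223 ± 8.81 CPM per kb in the wild type. *RSM18* and *MRP51* stood above *MRPS12* in *sis2Δ*, at 176 ± 0.415 and 167 ± 2.69 CPM per kb. Both stood below it in the wild type, at 180.3 ± 3.91 and 208 ± 9.09 CPM per kb. The lowest levels were those of *RSM22*, with 29.5 ± 2.41 CPM per kb in *sis2Δ* and 30.2 ± 2.31 CPM per kb in the wild type, and of *EHD3*, with 43.4 ± 2.56 and 47.5 ± 2.61 CPM per kb. The proteins are present in the ribosome in equal number for the most part, while their messages spanned a 6.78-fold range of levels in *sis2Δ* and an 8.15-fold range in the wild type. The order of the genes was nearly that of the wild type in *sis2Δ* (Spearman's rho 0.977 over 34 genes).

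**Figure D4:**
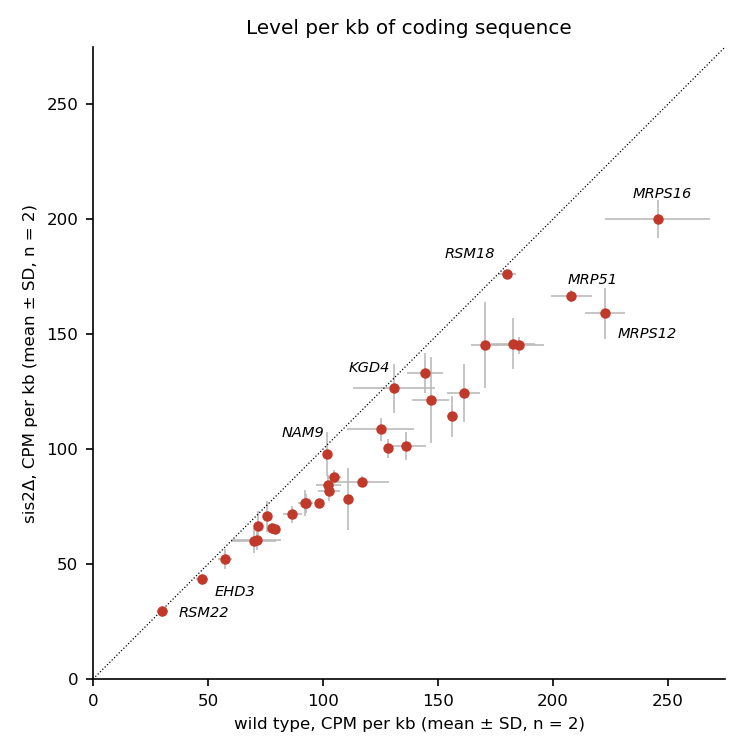
Mean level of each of the 34 genes in *sis2Δ* (y axis) and in the wild type (x axis), in CPM per kb of coding sequence, with the SD of 2 libraries as bars and equality as a dotted line. *MRPS16* is highest and *RSM22* lowest in both strains, and *RSM18*, *KGD4*, *NAM9* and *RSM22* lie close to the line.

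The genes lay on 13 chromosomes, with 7 on chromosome IV, 5 on XIV and 4 on VII. Each had a single coding exon, of 276 to 1887 bases. No stretch of 100 bases, the read length, in any of the 34 coding sequences occurred elsewhere in the genome, so their reads are not shared with a copy. None overlapped a gene on the same strand, and *MRP4* overlapped a gene on the opposite strand, whose reads are separated by the stranded count. Upstream, 20 of the 34 genes were divergent from their neighbour. Of the 32 upstream neighbours tested 21 had a log2 fold change below 0, against 51.0% of all tested genes. Their median was -0.11, against -0.00498 over all tested genes. *RSM19*, the upstream neighbour of *MRPS12*, is itself among the 34.

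The mitochondrial large subunit, measured in the same libraries, gave values like those of the small subunit. Its 44 genes had a median log2 fold change of -0.26, with 42 of 44 below 0, 37 separated and lower in *sis2Δ*, 8 called lower and 0 called higher by edgeR (28 lower and 0 higher at an unadjusted p under 0.05). limma-voom called 9 and DESeq2 7 lower, and both called 0 higher. The lowest was *MRPL23*, at 39.4 and 47.2 CPM in *sis2Δ* against 64.2 and 65.3 CPM in the wild type (log2 fold change -0.58, adjusted p = 0.0135 from edgeR). *MRPL20* and *MRPL7* had log2 fold changes of -0.57 and -0.51. Without *sis2Δ* A 0 genes of the large subunit were called lower, without wild type A 4 and without wild type B 2. The difference between the subunits was not tested.

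Other genes of mitochondrial translation were measured beside the ribosome. Of 10 mitochondrial translation factors tested, 8 had a log2 fold change below 0 (median -0.26), and *MRF1*, the release factor, was called lower at -0.49 (adjusted p = 0.0271 from edgeR). *MRF1* had 39.6 and 43.8 CPM in *sis2Δ*, against 55.6 and 61.8 CPM in the wild type. It was not called with library size alone, without *sis2Δ* A or without wild type B, where 0 translation factors were called. Of the 14 mitochondrial tRNA synthetases 13 were below 0 (median -0.16) and 0 were called by edgeR, limma-voom or DESeq2 in either direction, with 3 lower and 0 higher at an unadjusted p under 0.05. With median-ratio size factors 1 was called lower and without *sis2Δ* B 2, and with library size alone the median was -0.10. Of 19 genes that act on mitochondrial messages 16 were below 0 (median -0.08). Among them *RMD9*, whose protein binds and protects those messages, and *MAM33* were called lower, at -0.40 and -0.39 (adjusted p = 0.0381 and 0.0483 from edgeR). DESeq2 called 1 of this list lower, and 0 were called with library size alone (median -0.02), with no filter beyond 1 count, or without *sis2Δ* A, wild type A or wild type B. Of the genes for assembly of the small subunit, *QRI5* had a log2 fold change of -0.37, *CCM1* of -0.17 and *GEP3* of -0.01.

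The regulators were measured as messages only. *PUF3* had 74.7 and 62.5 CPM in *sis2Δ* A and B, against 87.1 and 64.7 CPM in wild type A and B. The strains overlapped, with a log2 fold change of -0.15 (adjusted p = 0.581 from edgeR). *HAP4*, the limiting subunit of the Hap complex, had a log2 fold change of -0.12 and *HAP2* of 0.21, and 0 of the 6 regulators reached an unadjusted p under 0.05 in edgeR or were called by limma-voom or DESeq2. Among protein-coding genes of neither mitochondrial subunit, the 754 tested genes with the Puf3 element had a median of -0.07, with 475 below 0, 44 called lower and 6 called higher. The 4839 tested genes without it outside the small subunit had a median of 0.00398, with 2374 below 0, 142 called lower and 152 called higher. Within the small subunit the median was -0.28 for the 32 genes with the element and -0.04 for the 2 genes without, which are too few to compare. Whether Puf3 or its element bears on the fold changes was not tested.

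The cytosolic small subunit differed between the *sis2Δ* replicates more than between strains. Its 57 genes summed to 41906 and 55932 CPM in *sis2Δ* A and B, against 54287 and 57430 CPM in wild type A and B. *sis2Δ* A was thus the low library, which was not seen in the sum of the mitochondrial small subunit, where *sis2Δ* A was the higher of the replicates. The median log2 fold change of the cytosolic genes was -0.19, with 0 called in either direction by edgeR, limma-voom or DESeq2 (3 lower and 1 higher at an unadjusted p under 0.05). It was 0.03 without *sis2Δ* A and -0.44 without *sis2Δ* B, where 32 genes were called lower.

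The nuclear genes of the respiratory chain and of ATP synthase, whose products join those that the mitochondrial ribosome makes, lay on the other side of 0. Of 36 genes 32 had a log2 fold change above 0, with a median of 0.19. *QCR6*, *ATP19* and *COX4* were called higher, at 0.70, 0.55 and 0.42 (adjusted p = 0.0206, 0.0272 and 0.0362 from edgeR), and *CYC1*, which encodes cytochrome c, was called lower at -0.47 (adjusted p = 0.0381). *COX4* had 106 and 110.4 CPM in *sis2Δ*, against 77.1 and 85.3 CPM in the wild type. The *sis2Δ* replicates of the other genes called higher lay further apart. *QCR6* had 313 and 212 CPM in *sis2Δ* A and B, against 168 and 156 CPM in wild type A and B. *ATP19* had 75.9 and 59.0 CPM in *sis2Δ* A and B, against 46.1 and 46.1 CPM in the wild type. Without *sis2Δ* A 0 of these genes were called in either direction, without *sis2Δ* B 5 were called higher, and without wild type B 2 were called higher and 0 lower.

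Messages of the mitochondrial genome, most of which lack the poly(A) tails by which the libraries were selected, took 0.00294% and 0.00201% of the counts in *sis2Δ* A and B, against 0.00128% and 0.00141% in wild type A and B. *VAR1*, which encodes uS3, the protein of the small subunit made inside mitochondria, had 0 and 1 counts in *sis2Δ*, against 4 and 2 counts in the wild type. At this depth, with 3 counts equal to between 0.110 and 0.159 CPM, its level could not be compared between the strains.

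**Figure D5:**
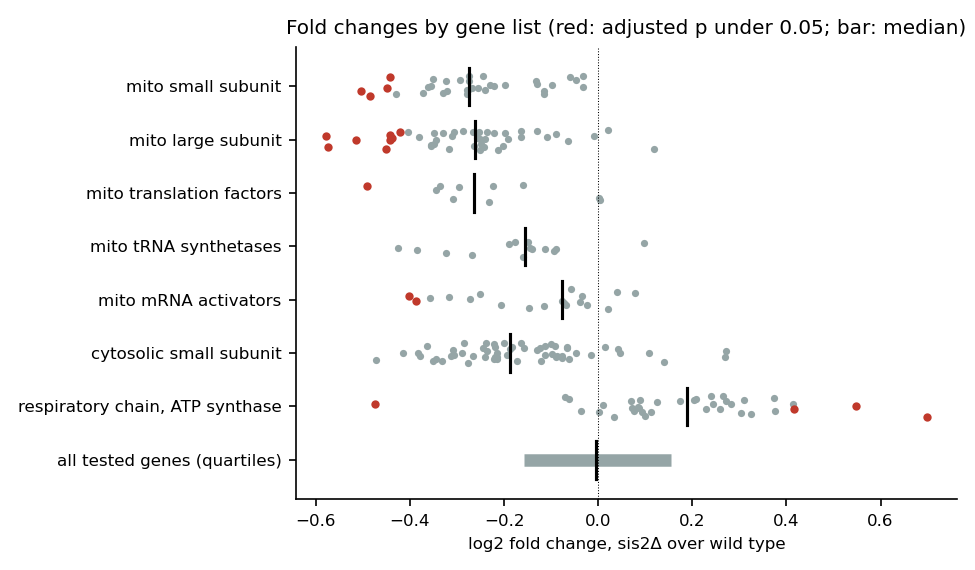
Fitted log2 fold change of *sis2Δ* over the wild type (x axis) of each tested gene of 7 lists, with genes of adjusted p under 0.05 in red and the median of each list as a black bar. The lowest row gives the quartiles of all 5959 tested genes. The mitochondrial small and large subunits lie left of 0 with medians of -0.28 and -0.26, and the respiratory chain and ATP synthase right of it with a median of 0.19.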

How the data were processed

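The authors sequenced stranded libraries of polyadenylated RNA. After trimming by Cutadapt 3.7 the reads were aligned to R64 by STAR 2.7.8a, and featureCounts 2.0.1 summed them per gene with the reverse strand setting. The deposited values are these raw counts. The annotation and the treatment of multimapping reads are not given in the sources used here. Their table of fold changes and p-values from limma 3.48.0 was not used.

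Strain and replicate letter came from the sample labels, and the cultures are labelled as biological replicates. The counts were fitted with edgeR 4.0.16 under R 4.3.3. A minimum of 0.5 CPM, met by 2 libraries or more, left the genes tested, which were scaled by TMM and compared by the quasi-likelihood test with Benjamini-Hochberg adjustment over all tested genes at 0.05. Standard errors were not given by the fit. They were computed as the size of the log2 coefficient, fitted without a prior count, divided by the square root of the F of this test. limma-voom (limma 3.58.1), DESeq2 1.42.0, median-ratio size factors, library size alone, other filters, the replicate letter as a block and each library left out were the alternatives. The smallest level taken as measured was 3 counts. Such floors cover counting error only.

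Members and lists were chosen with earlier results of these data known. Library values are given for called genes, for the 3 highest and 3 lowest log2 fold changes, for the 2 highest and 2 lowest levels per length and for the 2 widest replicate gaps, and for further genes chosen after their values were seen. Symbols and coordinates come from the RefSeq annotation of R64, which held 6008 of the 6692 identifiers. Promoters were read from the genome, 250 bases before the start codon, in place of a promoter table. *TSF1* and *MRH5* of the lists were not analysed here. The fits were tested on simulated counts.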

Additional observations from a re-analysis of the deposited data

How the results depend on the processing

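The number of small subunit genes called lower, 4 in the analysis above, was 0 with scaling by library size alone, 2 with no filter beyond 1 count, 11 with the replicate block, and between 0 and 7 with a library left out. Over all tested genes the calls in either direction numbered 362 in the analysis above, 788 with the replicate block and between 190 and 985 with a library left out. Such calls over the whole table numbered 316 with library size alone and 299 with no filter beyond 1 count. The median log2 fold change of the small subunit genes was -0.22 with library size alone and between -0.31 and -0.21 with a library left out. The number of small subunit genes below 0 was 34 in the other alternatives except library size alone (31), and 32 to 33 with a library left out. The median level was 88.6 CPM per kb in *sis2Δ* and 106 CPM per kb in the wild type with library size alone, and with a library left out between 87.7 and 88.9 in *sis2Δ* and between 107.4 and 109.7 in the wild type.

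Genes of the large subunit called lower numbered 3 with library size alone, 5 with no filter, 17 with the replicate block and 0 to 8 with a library left out, and their median was -0.21 with library size alone and -0.32 to -0.19 with a library left out. Of the cytosolic small subunit 3 genes were called lower with the replicate block and 0 to 32 with a library left out (median -0.44 to 0.0263). Of the respiratory chain 5 genes were called higher with DESeq2 and with median-ratio size factors, 8 with the replicate block and 0 to 5 with a library left out, and 0 were called lower with library size alone and with no filter, and 0 to 1 with a library left out (median 0.0894 to 0.261). With the replicate block 2 translation factors, 3 tRNA synthetases and 3 genes acting on mitochondrial messages were called lower. The cause of these changes was not tested.

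Libraries of the same letter deviated together only weakly (correlation 0.0956 over all tested genes and 0.0794 over the small subunit). With 2 pairs these values cannot show whether the letters mark a shared batch, which the sources used here do not state. With 2 libraries per strain, differences near the standard error of 0.11 on the log2 scale could not be resolved, and a left-out library leaves 1 in its strain, which is assumed to vary like the other.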
